A study of Mus musculus with 6 samples.

Results

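Inhibitors of cyclin-dependent kinases (CDKs) and the retinoblastoma, or pocket, proteins restrain entry into the cell cycle. Their transcripts were followed here in mouse haematopoietic stem cells (HSCs) sorted by surface CD38. The set holds 10 genes, found by matching the Ensembl identifiers of the count tables to gene symbols, out of 49585 genes counted. It is made up of the 3 Cip/Kip inhibitors Cdkn1a, Cdkn1b and Cdkn1c, the 4 INK4 inhibitors Cdkn2a, Cdkn2b, Cdkn2c and Cdkn2d, and the 3 pocket protein genes Rb1, Rbl1 and Rbl2. Each symbol matched 1 identifier.

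Bulk RNA sequencing was done on 6 libraries from the bone marrow of untreated C57BL/6 mice aged 8 to 16 weeks. All cells were lineage-negative (Lin-) and positive for both Kit and Sca-1, lacked CD48 and CD34, carried CD150 and CD201, and came from 10 mice per library. They differed in CD38, an ectoenzyme that consumes NAD: 3 libraries were from CD38-positive (CD38hi) and 3 from CD38-negative (CD38lo) cells, matched in 3 pairs by the series' design. Whether paired libraries share their mice is not given in the sources used here, and each library is a pool, so differences between animals cannot be seen. The question addressed was whether the brakes on the cell cycle differ in transcript level between the populations, since the series is titled as a study of CD38 and HSC dormancy.

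Progression from G1 into S phase depends on cyclin D with CDK4 or CDK6 and on cyclin E with CDK2, which phosphorylate the pocket proteins and release E2F transcription factors. INK4 proteins bind CDK4 and CDK6, whereas Cip/Kip proteins bind assembled cyclin-CDK complexes, those of CDK2 in particular. The pocket proteins RB, p107 and p130, encoded by Rb1, Rbl1 and Rbl2, hold E2F target genes in check, and p130 is the form best known from quiescent cells. In HSCs, p57 (Cdkn1c) is known for its role in quiescence, p21 (Cdkn1a) is a target of p53, and the products of Cdkn2a are associated with ageing and stress.

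The libraries held 16771180 to 18558610 counts, and 3 counts correspond to 0.162 to 0.179 CPM. Levels are in CPM, counts normalised to library size, with TMM scaling in all values but that floor. All 10 genes on a list of HSC markers were detected, Procr for instance with 554 to 1223 reads per library, Hlf with 619 to 2599 and Mecom with 548 to 2173. Genes of other blood cells were abundant beside them. The 16 listed granulocyte and monocyte genes together took 8.29% to 16.0% of counts in CD38-positive and 9.33% to 13.5% in CD38-negative libraries, against 0.0690% to 0.171% and 0.100% to 0.240% for the HSC markers, and no gene of either list was at 0 in all libraries. B and plasma cell genes took 0.0366% to 0.0972% and 0.130% to 0.274%. Transcripts of Cd38 itself were at 47.2 ± 10.7 CPM (SD, n = 3) where the label is CD38-positive and at 27.9 ± 6.70 CPM (SD, n = 3) where it is CD38-negative, without overlap. Such a lack of overlap was seen for 6.53% of all genes. Neither Cd38 (log2 difference 0.76, edgeR adjusted p = 0.893) nor any listed marker gene passed the test described next. The part that admixed cells play in the levels below was not tested, and in bulk RNA a change in cell make-up and a change in RNA per cell cannot be told apart.

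Of the 10 genes, 8 had enough reads to be tested. None of the 8 differed between CD38-positive and CD38-negative cells at an adjusted p-value of 0.05 (edgeR quasi-likelihood test with the pair as a block, Benjamini-Hochberg adjustment over 14785 genes, smallest adjusted p = 0.926). Across all genes 0.0135% passed, namely Clu, higher in CD38-positive cells, and the immunoglobulin gene Igha, lower, both named after their values were seen. Without the pair block 0 genes passed, and 2.82% of all genes were under 0.05 before adjustment. At an unadjusted p under 0.05 there was 1 of the 8, Cdkn1c, where 5.08% of all genes lay. DESeq2 gave 0 of the 8 at either level, where 0.0744% of all genes passed after and 4.41% before adjustment. With limma-voom, Cdkn1c alone was under 0.05 before adjustment and 0 of the 8 after it, against 5.47% and 0.0203% of all genes. Fitted values were higher in CD38-positive cells for 4 of the 8 and lower for 4, with a median log2 difference of 0.03 against 0.00 for all genes. Higher values in all 3 pairs were seen for 2 genes, Cdkn1a and Cdkn1c (13.2% of all genes), and lower values in all 3 pairs for 0 (11.3% of all genes).

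**Figure D1:**
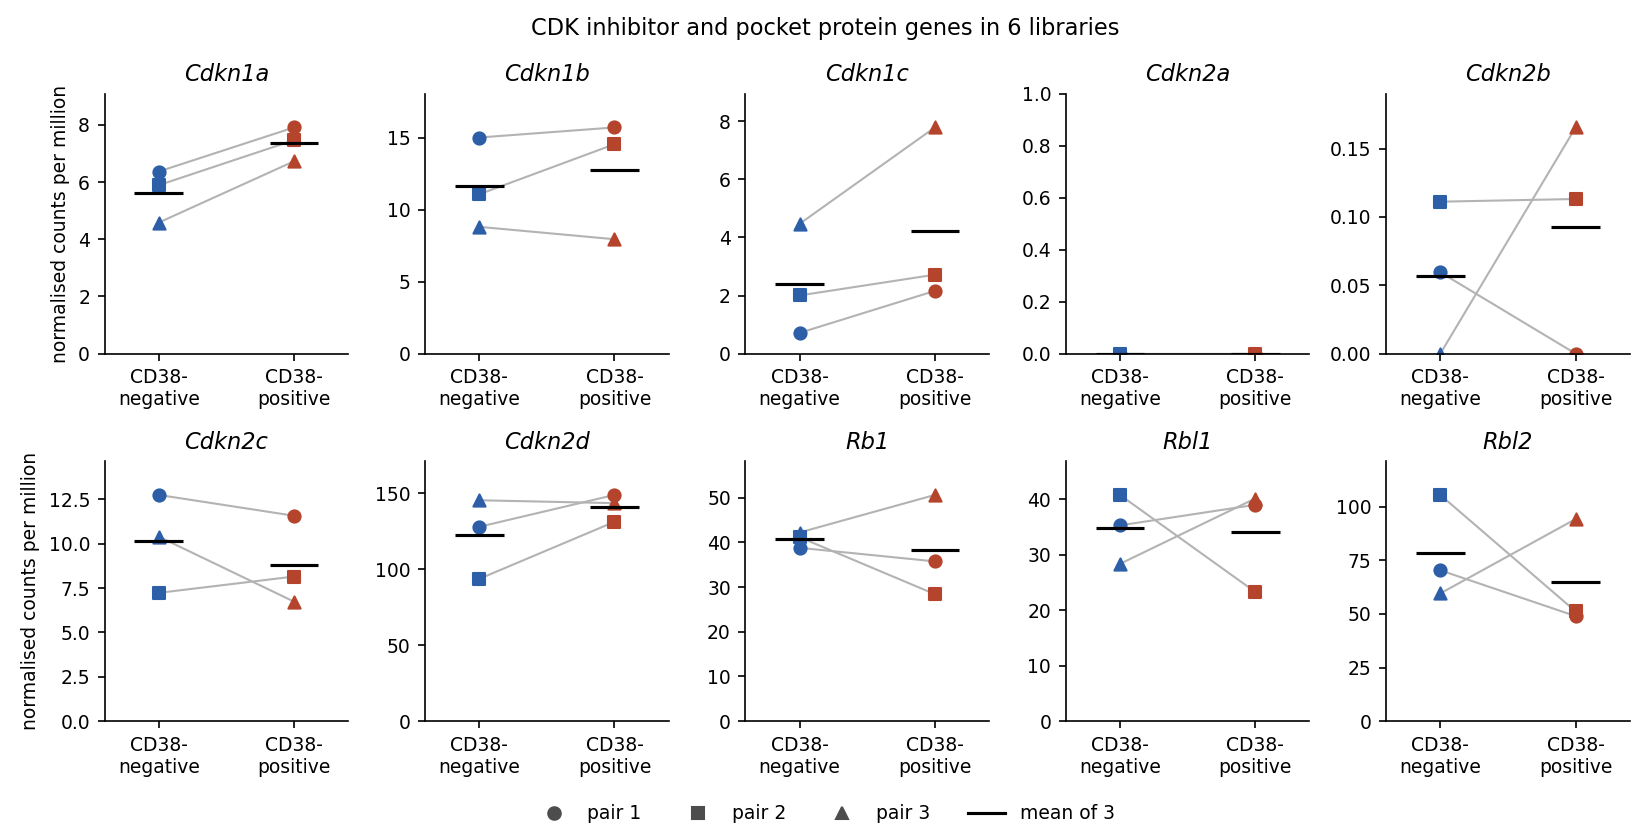
Normalised counts (CPM, vertical axis, linear from 0) of each gene in the 3 CD38-negative and 3 CD38-positive libraries. Symbols mark the pair, grey lines join the libraries of a pair and black bars are means; the lines of Cdkn1a and Cdkn1c rise in all pairs, while those of the pocket protein genes cross.

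Among the Cip/Kip inhibitors, Cdkn1c had the largest fitted difference and the widest spread. Cdkn1c (ENSMUSG00000037664, GRCm38 chromosome 7, 143458339 to 143461050, minus strand) encodes p57 and is an imprinted gene expressed from the maternal allele. It had 36, 48 and 141 reads in CD38-positive libraries of pairs 1, 2 and 3, and CD38-negative cells of the same pairs gave 12, 36 and 73 reads. Normalised, these were 2.16, 2.72 and 7.78 CPM against 0.715, 2.0 and 4.46 CPM. The CD38-positive library was the higher one within each pair, but both libraries of pair 3 lay well above those of pair 1, so the ranges of the populations overlapped. The highest library was 10.9 times the lowest, the widest range of the 8 genes. The log2 difference was 0.89 (SE 0.38), with 1.45, 0.42 and 0.79 in the 3 pairs. Its unadjusted edgeR p-value of 0.0345 became 0.926 after Benjamini-Hochberg adjustment. Without the replicate block the log2 difference was 0.82 and the gene was no longer under 0.05 before adjustment. The unadjusted threshold was also missed without pair 1, whose CD38-negative library had 12 reads (log2 difference 0.63), without pair 3 (0.95), and with the granulocyte share in the model in place of the pair (0.81). An antisense gene on the other strand, Gm44732, had 34 reads in all libraries together; without a stated strand setting, the reads of such partners cannot be told apart.

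Cdkn1a (ENSMUSG00000023067, chromosome 17, 29090976 to 29100727, plus strand) encodes p21. It had 7.91, 7.47 and 6.73 CPM in CD38-positive libraries of pairs 1 to 3 and 6.37, 5.89 and 4.59 CPM in CD38-negative ones. Each CD38-positive library was above each CD38-negative library, and Cdkn1a was the one tested gene of the set whose populations did not overlap (6.53% of all genes did not overlap). Means were 7.37 ± 0.597 CPM (SD, n = 3) and 5.62 ± 0.924 CPM (SD, n = 3). The log2 difference of 0.40 (SE 0.28) was similar in the pairs, at 0.31, 0.34 and 0.54, but missed the threshold (edgeR unadjusted p = 0.180, adjusted p = 0.930). The gene had 75 to 132 reads per library.

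Cdkn1b (ENSMUSG00000003031, chromosome 6, 134920401 to 134925513, plus strand) encodes p27. Its levels were 15.7, 14.5 and 7.94 CPM in CD38-positive and 15.01, 11.1 and 8.80 CPM in CD38-negative libraries. Both libraries of pair 3 were below the other 4, and the populations overlapped. The log2 difference was 0.11 (SE 0.25), and without pair 2 it turned to -0.05.

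**Figure D2:**
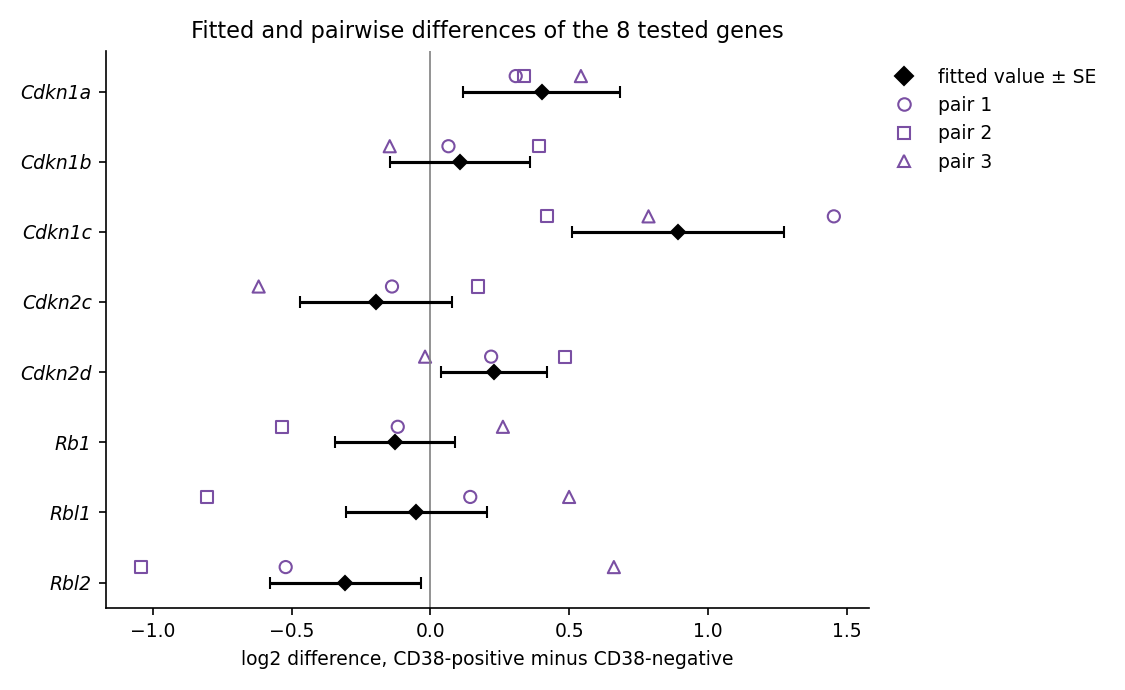
Log2 differences, CD38-positive minus CD38-negative (horizontal axis), of the 8 tested genes. Black diamonds with bars are edgeR values ± SE and open symbols are the 3 pairs; the 3 pairs of Cdkn1a and Cdkn1c lie above 0, and those of Rbl2 run from -1.04 to 0.66.

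The balance within the Cip/Kip family was compared through levels per kilobase of exon, which allow genes of different length to be set side by side. Cdkn1c made up 15.7%, 20.1% and 51.2% of the family total in CD38-positive libraries of pairs 1, 2 and 3, and 6.44%, 19.4% and 40.4% in their partners. Its share was larger in CD38-positive cells in 3 of 3 pairs, by a mean of 6.92 percentage points, and the exact sign-flip permutation test over pairs, two-sided, gave 0.25, the smallest p that 3 pairs allow (0.563 after Benjamini-Hochberg adjustment over 9 genes). Cdkn1b ran the other way along the libraries, from 23.4% to 60.6%, and Cdkn1a varied least, from 23.8% to 33.1%. With the merged exons of each gene as length, Cdkn1b was the most abundant of the 3 per kilobase in the 4 libraries of pairs 1 and 2. Cdkn1c was the most abundant in both libraries of pair 3. The order of Cdkn1a and Cdkn1b depends on the length used. With the longest transcript instead, Cdkn1a had the higher mean over the libraries, at 3.12 CPM per kilobase against 2.68 for Cdkn1b. Pair 3 differed from the other pairs by more than the populations differed within any pair.

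**Figure D3:**
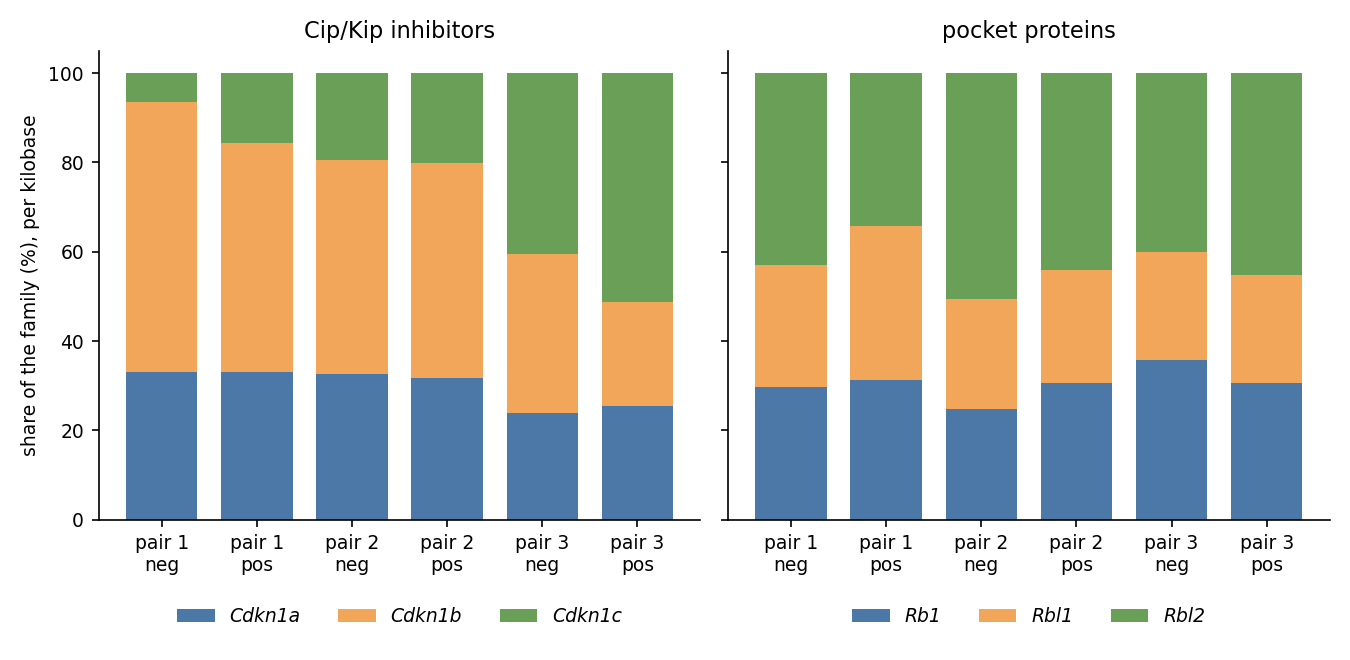
Shares (%, vertical axis) of the genes of the Cip/Kip family (left) and of the pocket protein family (right) in each library, from counts per kilobase of exon. Cdkn1c ranges from 6.44% in the CD38-negative library of pair 1 to 51.2% in the CD38-positive library of pair 3.

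For each Cip/Kip gene, the 3 genes with the most similar profile over the 6 libraries were taken by Pearson's r of log2 CPM, among about 8737 genes with a mean of at least 10 CPM. These were Mmp9, Fn1 and Fdxr for Cdkn1a (r = 0.984, 0.972 and 0.966), Syncrip, Cbx5 and Rsad2 for Cdkn1b (0.995, 0.994 and 0.991), and Ppt1, Pdgfd and Ubl3 for Cdkn1c (0.989, 0.989 and 0.985). Being the highest of about 8737 values over 6 libraries, these r are large partly through the selection. The libraries share pairs, and the values describe these 6 libraries alone.

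The INK4 family was dominated by a single gene. Cdkn2d (ENSMUSG00000096472, chromosome 9, 21288410 to 21291407, minus strand) encodes p19INK4d, and had 1685 to 2602 reads per library. It held 94.4% to 97.2% of the family total per kilobase. Its levels were 149, 131 and 144 CPM in CD38-positive and 128, 93.7 and 145 CPM in CD38-negative libraries. The CD38-negative library of pair 2 stood below the other 5, and the libraries of pair 3 were nearly level. The log2 difference was 0.23 (SE 0.19, edgeR adjusted p = 0.933). The granulocyte list, as a mean of log2 CPM, differed between the populations by 0.53, 0.05 and -0.26 in pairs 1, 2 and 3, and Cdkn2d by 0.22, 0.49 and -0.02. When the model held the granulocyte share instead of the pair, all 8 tested genes kept the sign of their log2 difference and 0 of the 8 were under 0.05 before adjustment. That fit changed both the block and the covariate.

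Cdkn2c (ENSMUSG00000028551, chromosome 4, 109660876 to 109667189, minus strand), which encodes p18INK4c, was at 11.6, 8.15 and 6.73 CPM in CD38-positive and 12.7, 7.23 and 10.4 CPM in CD38-negative libraries. The populations overlapped, with a log2 difference of -0.20 (SE 0.27) that became 0.01 without pair 3. Per kilobase, Cdkn2d exceeded Cdkn2c by 17.1 to 36.4 times. That ratio was larger in the CD38-positive library of each pair, at 21.97, 27.5 and 36.4 against 17.1, 22.1 and 23.9, and the corresponding share had an exact permutation p of 0.25.

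The remaining INK4 genes were at or near zero. Cdkn2a (ENSMUSG00000044303, chromosome 4, 89274471 to 89294653, minus strand), which encodes p16INK4a and p19ARF from separate start sites, had 0 reads in all 6 libraries. A count of 0 allows up to 3 counts per library, 0.162 to 0.179 CPM. Since 1 identifier covers both transcripts, neither product was detectable at this depth. Cdkn2b (ENSMUSG00000073802, chromosome 4, 89306299 to 89311039, minus strand), which encodes p15INK4b, had 0, 2 and 3 reads in CD38-positive and 1, 2 and 0 reads in CD38-negative libraries, at or under that floor. Neither gene entered the filtered fits, and with no filter Cdkn2b had an edgeR adjusted p of 0.999.

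The 250 bases before each of the 2 start sites that RefSeq gives for Cdkn2a are shown, because reads from both starts would be counted under this 1 gene. They are read 5′ to 3′ on the minus strand of GRCm38.p6, with capitals for matches to the E2F motif TTTNNCGC on either strand. The distal window is printed without its last 34 bases, which GENCODE places in the first exon.
Cdkn2a, distal start, chr4:89294654-89294869: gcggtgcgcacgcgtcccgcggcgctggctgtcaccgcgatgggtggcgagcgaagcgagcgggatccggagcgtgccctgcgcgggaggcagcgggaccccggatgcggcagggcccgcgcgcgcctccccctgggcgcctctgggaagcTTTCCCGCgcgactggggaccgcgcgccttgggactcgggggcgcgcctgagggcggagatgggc
Cdkn2a, proximal start, chr4:89282193-89282442: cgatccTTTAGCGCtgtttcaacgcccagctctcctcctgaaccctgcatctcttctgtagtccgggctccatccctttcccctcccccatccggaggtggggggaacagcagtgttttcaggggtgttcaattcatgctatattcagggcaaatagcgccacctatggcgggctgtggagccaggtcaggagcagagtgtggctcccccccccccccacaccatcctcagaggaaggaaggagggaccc
Each window held 1 match, 99 and 244 bases before the start. Of 32851 RefSeq promoter windows of 250 bases, 4.28% held this motif. A match describes letters and is no evidence of binding.

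The pocket protein genes were the most abundant of the set after Cdkn2d, and the sign of their difference varied from pair to pair. Rbl2 (ENSMUSG00000031666, chromosome 8, 91070057 to 91123844, plus strand), which encodes p130, was at 49.0, 51.1 and 94.2 CPM in CD38-positive libraries of pairs 1, 2 and 3 and at 70.3, 105 and 59.6 CPM in CD38-negative ones. The CD38-positive library was lower in pairs 1 and 2 and higher in pair 3, so the populations overlapped. Log2 differences were -0.52, -1.04 and 0.66 in the 3 pairs, and -0.31 (SE 0.27) in the joint fit (edgeR adjusted p = 0.936). The value was -0.78 without pair 3 (edgeR adjusted p = 0.527, and under 0.05 before adjustment), the smallest adjusted p of the set under any alternative, and 0.06 without pair 2.

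Rb1 (ENSMUSG00000022105, chromosome 14, 73183673 to 73325822, minus strand), which encodes RB, was at 35.7, 28.4 and 50.6 CPM in CD38-positive and 38.8, 41.1 and 42.2 CPM in CD38-negative libraries. The CD38-negative libraries lay close together, at 40.7 ± 1.75 CPM (SD, n = 3), while the CD38-positive ones, at 38.2 ± 11.3 CPM (SD, n = 3), lay on both sides of them. The log2 difference was -0.13 (SE 0.22), and 0.06 without pair 2. Rbl1 (ENSMUSG00000027641, chromosome 2, 157145893 to 157204534, minus strand), which encodes p107, was at 39.0, 23.3 and 40.2 CPM and at 35.3, 40.8 and 28.4 CPM. Its log2 difference was -0.05 (SE 0.25), and 0.31 without pair 2. Rb1 and Rbl2 had the same signs, lower in the CD38-positive library of pairs 1 and 2 and higher in that of pair 3, whereas Rbl1 shared their direction in pairs 2 and 3. Over the 6 libraries the log2 levels of Rb1 and Rbl2 had an r of 0.709, those of Rb1 and Rbl1 0.671 and those of Rbl1 and Rbl2 0.617, given as a description. Other genes overlap the span of these loci, Lpar6, Rcbtb2 and Gm17233 that of Rb1, Gm14277 that of Rbl1, and Aktip and Gm45464 that of Rbl2. Gm17233, with 646 reads in all libraries together, is on the same strand as Rb1, and the others named are on the opposite strand. Whether exons are shared was not examined. How reads in any shared exons were assigned is not given in the sources used here.

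Within the family, Rbl2 held 34.2% to 50.6% of the total per kilobase, Rb1 24.8% to 35.7% and Rbl1 24.1% to 34.4%. Rbl2 exceeded Rb1 in 6 of 6 libraries, by 1.09 to 2.04 times. Rbl1 had the larger share in the CD38-positive library of each pair, by a mean of 2.66 percentage points that came almost wholly from pair 1 (34.4% against 27.2%), with an exact permutation p of 0.25.

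The stretch before the start site of Rbl1 and of Rbl2 is shown because both genes differed in the same direction in pairs 2 and 3, and because Rbl1 is itself a known E2F target. Both windows are 250 bases from RefSeq on GRCm38.p6, read 5′ to 3′ on the strand of the gene, with E2F motif matches (TTTNNCGC, either strand) in capitals.
Rbl1, minus strand, chr2:157204535-157204784: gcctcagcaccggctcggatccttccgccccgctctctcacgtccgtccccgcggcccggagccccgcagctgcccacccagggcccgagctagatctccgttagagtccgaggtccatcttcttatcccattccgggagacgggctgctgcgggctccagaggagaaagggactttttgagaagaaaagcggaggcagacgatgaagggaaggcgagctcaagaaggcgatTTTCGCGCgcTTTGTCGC
Rbl2, plus strand, chr8:91069807-91070056: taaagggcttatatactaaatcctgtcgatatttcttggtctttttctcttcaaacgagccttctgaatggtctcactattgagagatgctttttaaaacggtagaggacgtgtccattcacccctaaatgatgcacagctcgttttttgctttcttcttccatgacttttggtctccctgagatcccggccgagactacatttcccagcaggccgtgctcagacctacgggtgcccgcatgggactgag
Rbl1 held 2 matches, starting 18 and 8 bases before the start site, and Rbl2 held 0. Windows were matched for 8 of the 10 genes, all but Rb1 and Cdkn1c, 11 in all, and 3 of these 11 had a match: the one of Rbl1 and both of Cdkn2a. The motif TTTGAA, known as the cell cycle homology region, was in 2 of the 11, those of Rbl2 and Cdkn2b, and in 16.0% of all windows.

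Set by level per kilobase, the order of the 10 genes was Cdkn2d (83.7 CPM per kilobase as the mean of 6 libraries), Rbl2 (9.48), Rb1 (6.56), Rbl1 (5.76), Cdkn2c (3.53), Cdkn1b (2.68), Cdkn1a (1.83), Cdkn1c (1.62), Cdkn2b (0.0539) and Cdkn2a (0). Cdkn2d was first in every library. Each pair of neighbours from Rbl2 down to Cdkn1c overlapped in range over the libraries, Cdkn2d lay above Rbl2 and Cdkn1c above Cdkn2b in range, Cdkn2b overlapped Cdkn2a at 0, and Cdkn1a and Cdkn1b traded places when the longest transcript replaced the union of exons. The inhibitors other than Cdkn2d were below most of the partner genes shown, by mean level, while Cdkn2d lay between Cdk4 and Ccnd3. Cdk4 had 131 CPM per kilobase, Ccnd3 78.5, Ccnd2 30.4, Ccne1 28.3, Cdk2 27.0 and E2f4 14.3. Cdk6 (7.71), E2f1 (2.47) and Ccnd1 (2.19) were in the range of the pocket protein and Cip/Kip genes. Skp2 (0.801) had a lower mean than every tested gene of the set. Transcript levels say nothing of protein amounts, which for p27 are known to be set largely by degradation.

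**Figure D4:**
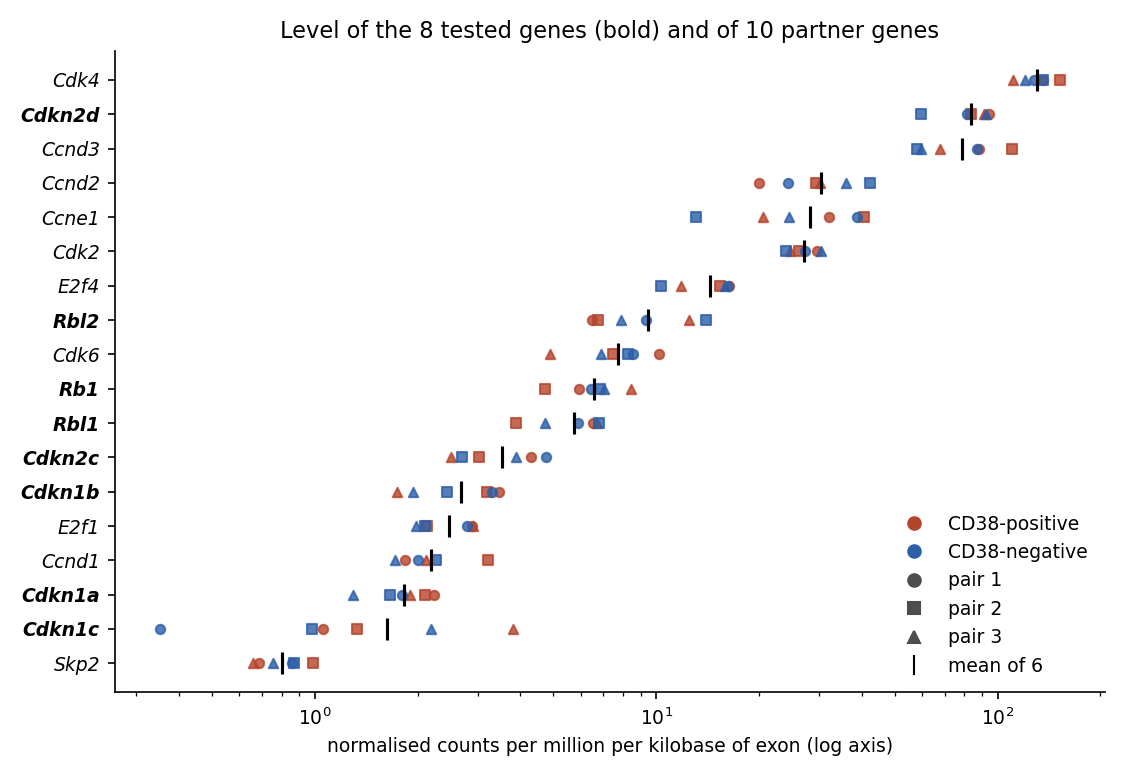
Normalised CPM per kilobase of exon (horizontal log axis) of the 8 tested genes, in bold, and of 10 partner genes, ordered by the mean of 6 libraries (black ticks). Colours mark the populations and symbols the pairs; Cdkn2d lies beside Cdk4 and Ccnd3, and Cdkn1c spans the widest range of the genes shown.

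The genes that act with the set were followed through 6 lists of 72 genes, all of which could be tested. None passed the edgeR test with the pair block in either direction, 4 had an unadjusted p under 0.05 (Ccna2, E2f3, Mdm2 and Aurkb, named after their values were seen; 5.56%, against 5.08% of all genes), and the median log2 difference was 0.10. Of 9 CDK and cyclin genes, 6 had higher and 3 lower fitted values, with a median of 0.05. Cdk4 (log2 difference 0.04), Cdk2 (-0.03) and Cdk6 (-0.13), the kinases that the inhibitors bind, were near 0. Among the D cyclins, Ccnd3 was 0.38, with 0.02, 0.93 and 0.19 in pairs 1 to 3, so mostly from pair 2. Ccnd2 was -0.36, with -0.28, -0.53 and -0.26, and Ccnd1 was 0.23. Of all genes, 13.2% were higher and 11.3% lower in all 3 pairs. The 3 D cyclins had edgeR adjusted p-values of 0.926 or above. Ccne1, for cyclin E1, was 0.35, carried by pair 2 at 1.63, with -0.27 and -0.25 in pairs 1 and 3.

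Of 10 E2F and DP genes, 6 had higher and 4 lower fitted values. E2f1 was 0.21 and E2f4, the E2F that mostly partners p107 and p130, was 0.05. Named after its values were seen, E2f3 had lower levels in all CD38-positive libraries, at 10.96 ± 1.85 CPM (SD, n = 3), where CD38-negative ones had 17.1 ± 2.13 CPM (SD, n = 3). The populations did not overlap, as was so for 6.53% of all genes. The log2 difference was -0.65 (edgeR unadjusted p = 0.0184, adjusted p = 0.925). The 7 genes of the MuvB core and of factors that act with it had a median of 0.00. The core is part of the DREAM repressor complex, together with p107 or p130. The 8 genes for turnover of the inhibitors had a median of -0.05, with Skp2, the F-box protein that targets p27, at -0.11.

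Among 14 transcriptional regulators of the set, Trp53 was -0.32 and Bmi1, the Polycomb protein that represses Cdkn2a, was -0.25. Named after its values were seen, Mdm2, like Cdkn1a a p53 target, had a mean of 124 ± 11.1 CPM (SD, n = 3) in the CD38-positive libraries, all above the CD38-negative ones with their mean of 91.0 ± 17.9 CPM (SD, n = 3). Of all genes, 6.53% likewise did not overlap between the populations. The log2 difference of Mdm2 was 0.46 (edgeR unadjusted p = 0.0370, adjusted p = 0.926), and pair 1 contributed 0.02.

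The 24 proliferation genes, many of them known E2F or DREAM targets, had fitted values higher in CD38-positive cells for 22 and lower for 2, with a median of 0.21. Among all 14785 genes tested, 7404 had higher fitted values. None of the 24 passed the edgeR test, and 1 (Aurkb) had an unadjusted p under 0.05. The median of the list was 0.10, 0.68 and -0.19 in pairs 1, 2 and 3, so largest in pair 2 and of the other sign in pair 3. Mki67 followed these signs, at 0.26, 0.998 and -0.29. The mean log2 level of the HSC markers had the opposite signs, at -0.35, -0.95 and 0.17, so that in each pair the library with more proliferation transcripts had less HSC marker RNA.

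Rbl2 and Rb1 ran with the HSC markers and against the proliferation genes in each pair. Over the 6 libraries Rbl2 had a Pearson's r of -0.872 with the proliferation list (exact permutation test, two-sided, p = 0.0361; Spearman's rho -0.829, exact p = 0.0583) and of 0.854 with the HSC markers (exact p = 0.0403; rho 0.943, exact p = 0.0167). A total of 24 relations was computed, for 8 genes and 3 lists, and after Benjamini-Hochberg adjustment both exact p-values were 0.413, so neither passed. Leaving out the 2 libraries farthest from the median of the list brought r to -0.339 and to 0.622; the first relation rests on those 2, the CD38-negative library of pair 2 and the CD38-positive library of pair 3. On deviations from the pair mean r was -0.929 and 0.933. The 2 deviations of a pair mirror each other, so these r values rest on 3 differences. They are readily large where the signs match in all pairs, and are no stronger check than r over the 6 libraries. Rb1 had -0.672 and 0.645 (exact p = 0.138 and 0.163), and Cdkn1b had the opposite signs, 0.787 and -0.799 (exact p = 0.0875 and 0.0694). Cdkn1c had -0.458 and 0.433, with its sign turned for both lists on deviations from the pair mean. With the granulocyte list r ran from -0.587 for Rbl2 to 0.760 for Cdkn2c. The 6 libraries come in pairs and are not fully independent, and the part of cell make-up in these relations was not tested.

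**Figure D5:**
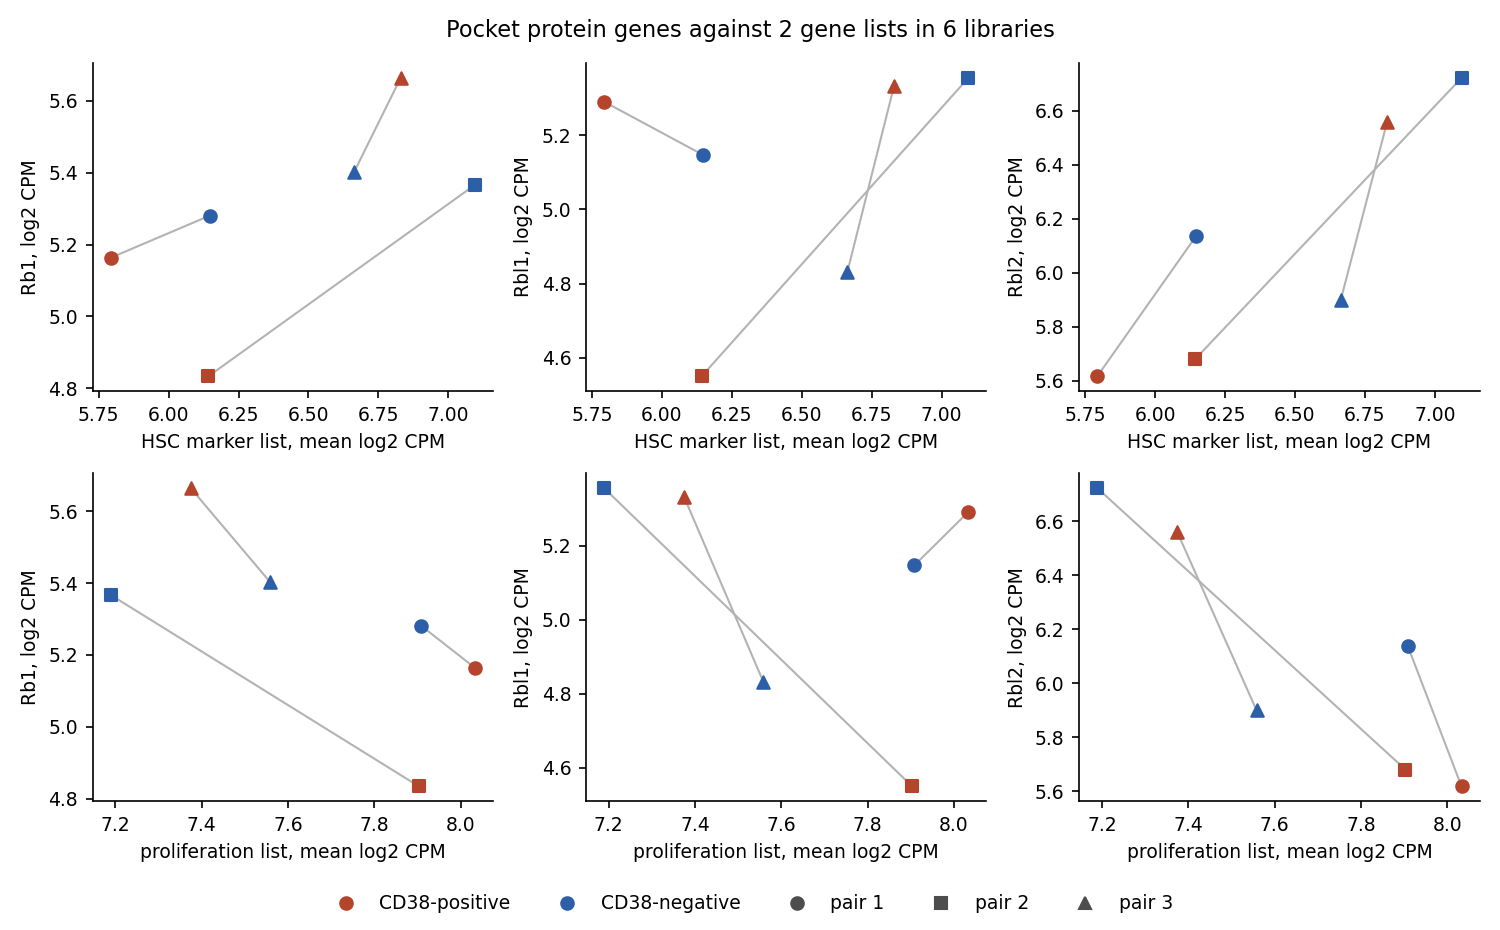
Log2 CPM of Rb1, Rbl1 and Rbl2 (vertical axes) against the mean log2 CPM of the HSC marker list (top) and of the proliferation list (bottom) in 6 libraries. Lines join the libraries of a pair; for Rb1 and Rbl2 all lines rise in the top panels and fall in the bottom ones, and for Rbl1 the line of pair 1 runs the other way.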

How the data were processed

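The authors deposited raw counts by Ensembl gene in 1 table per library, 6 in all, without a header. The submitters' processing notes name cutadapt, STAR and HTSeq 0.6.1p1 and the builds GRCm38 and mm10; strand setting and annotation release are not given in the sources used here. Symbols, coordinates and exon lengths came from GENCODE M21 (GRCm38), promoter windows from RefSeq (GRCm38.p6).

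Genes kept by filterByExpr (14785) were TMM-scaled and tested with edgeR 4.0.16 in R 4.3.3 (estimateDisp, glmQLFit, glmQLFTest; pair plus population). SEs were derived from the quasi-F statistic. Log2 CPM used a prior count of 2. The pair was in the main fit because the design text compares the libraries pair by pair; libraries of a pair deviated together from the population means, with correlations of 0.34, 0.12 and 0.24. No 2 libraries of a group looked like copies of each other (chi-square over its degrees of freedom 47.4 to 106). Nothing says that their pools were separate collections, so p-values measure the spread between these libraries, which may be technical. On simulated counts for 14508 fitted genes, 52 of 100 genes changed by 2-fold and 95 of 100 changed by 4-fold were called, along with 6 unchanged genes. The changed genes were drawn from those above a minimum mean count, and no difference between pairs was simulated. Many more genes were called there than in the data, which loosens the adjusted cut-off. The simulation therefore does not give the power of the test for the genes of the set.

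The named genes are the 10 of the set, 13 partner genes, and 3 similar genes per Cip/Kip gene; genes marked in the text, some HSC markers, the sorted marker Cd38 and genes overlapping the set were named after their values were seen. The members and lists were chosen with earlier results of these data known. Floors cover counting error only. Alternatives were the fit without the block, DESeq2 1.42.0, limma-voom (limma 3.58.1), 2 other scalings, 2 other filters, a granulocyte covariate, each pair left out, and the longest transcript as length. Relations with the HSC and granulocyte lists were added after seeing the data.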

Additional observations from a re-analysis of the deposited data

How the results depend on the processing

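No gene of the set and no partner gene passed the adjusted threshold under any of the 11 alternatives, among them the fit without the replicate block, where the median log2 difference of the 8 tested genes was 0.05 against 0.03. Of 88 alternative values of single genes, 83 kept their sign and side of the threshold and 5 changed sign, all when a pair was left out. Over the 3 fits that leave out a pair, the log2 difference ran from -0.0498 to 0.23 for Cdkn1b, from -0.39 to 0.0130 for Cdkn2c, from -0.33 to 0.0609 for Rb1, from -0.33 to 0.31 for Rbl1 and from -0.78 to 0.0604 for Rbl2. Cdkn1a (0.33 to 0.45), Cdkn1c (0.63 to 1.10) and Cdkn2d (0.0876 to 0.35) stayed above 0 under all 11. The edgeR, DESeq2 or limma adjusted p-values of Cdkn1c were 0.636 and above. The sign of r also changed in some cases. Without the 2 farthest libraries it was -0.184 for Cdkn2d and 0.429 for Rbl1 (proliferation), 0.948 for Cdkn2d (HSC markers), and -0.768 for Cdkn1a, -0.100 for Cdkn1b, 0.430 for Rb1 and 0.128 for Rbl2 (granulocyte list). On deviations from the pair mean Cdkn1c had 0.264, -0.446 and 0.582 with the 3 lists and Rbl1 had -0.173 with the granulocyte list. The cause was not tested. The median of all genes moved by under 0.1 on the log2 scale with each scaling. Depth limits Cdkn2a and Cdkn2b, at 0 to 3 reads, and Cdkn1c in pair 1.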
